A study of Rattus norvegicus with 232 samples.

Results

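Calcium/calmodulin-dependent protein kinase II (CaM kinase II) is encoded in the rat by 4 genes, Camk2a, Camk2b, Camk2d and Camk2g, and 2 further genes, Camk2n1 and Camk2n2, encode small proteins that inhibit it. These 6 genes were taken by symbol from the RefSeq gene table of rat brain RNA, which held 20859 tested genes, and all 6 were present. The rule takes them for what they encode and uses no measured value, although earlier results of these data were known when it was set. No filter on low values was applied, so all 6 genes entered every fit on that table.

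RNA was measured by stranded sequencing of rRNA-depleted total RNA from brains of untreated inbred rats of the Hybrid Rat Diversity Panel. The paper describes male rats whose brains were cut along the midline, with 1 side used for sequencing. It covers only some of the strains measured here, and the dissection of the others is not given there. The male label is carried by 148 of the 232 samples. The RefSeq table held 214 libraries from 197 animals of 74 strains: 88 animals of 30 HXB/BXH strains, 43 animals of 19 FXLE/LEXF strains and 66 animals of 25 classic inbred strains. HXB/BXH strains are recombinant inbred strains, each a fixed mosaic of the genomes of the spontaneously hypertensive rat SHR/OlaIpcv and the Brown Norway congenic BN-Lx/Cub. WKY/NCrl is the normotensive control strain derived from the same Wistar stock as SHR, and SHRSP/A3NCrl is a stroke-prone hypertensive strain related to SHR. No animal was treated or carried a transgene by its labels. There were 54 strains with 3 animals, 15 with 2 and 5 with 1. SHR/OlaIpcv was represented by 2 animals, animal 1 with 12 libraries and animal 4 with 6, WKY/NCrl by 3 animals, BN-Lx/Cub by 3 and SHRSP/A3NCrl by 2. Libraries of 1 animal were averaged before testing, except in the fits to single libraries, which are named as such.

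CaM kinase II assembles from its subunits into large rings of kinase domains. Calcium-bound calmodulin opens the kinase, and neighbouring subunits can then phosphorylate each other, so that activity outlasts the calcium signal. The alpha subunit, from Camk2a, is the main form in forebrain excitatory neurons and is known for its part in synaptic potentiation. The beta subunit, from Camk2b, ties the enzyme to actin and is the leading form in the cerebellum. The gamma and delta subunits, from Camk2g and Camk2d, are made in many tissues, and delta is the main form of the heart. Camk2n1 and Camk2n2 encode the inhibitor proteins CaM-KIIN alpha and beta, which bind the opened kinase.

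All values are on the log2 scale to which the authors had transformed their read estimates, and a difference of 1 is a doubling. No read counts were given, so how deeply a library was sequenced is unknown, and counting error cannot be stated for any value. Gene lengths were not used, and levels are therefore compared between rats and not between genes. Library medians lay between 8.18 and 8.42. Defining markers of forebrain excitatory neurons, astrocytes and oligodendrocytes had mean levels of 11.09, 13.05 and 14.44 or more in every animal. There were 18 libraries that stood apart: 13 had liver markers more than 5 scaled median absolute deviations above the median library, 4 animals were nearer to the mean of another strain than to that of their own, and the 3 LEW/Crl libraries had low Y-linked transcripts. These groups overlap, and they include the batch 11 library of SHR/OlaIpcv animal 1 and the only LE/Stm library. HXB17/Ipcv animal 2 had lower Y-linked transcripts still (Kdm5d 9.32, against 9.57 to 9.64 in LEW/Crl), but was not counted among the 18. It therefore stayed in the fits without these libraries.

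Sequences upstream of 3 genes are shown first, picked from 5 genes whose strain means were all correlated with each other. Whether sequence and correlation go together was not tested. Sequence from RefSeq on GRCr8 was at hand for 5 of the 6 genes, and that of Camk2n1 was not analysed here. The 250 bases before the annotated start are printed for Camk2b (chr14:85147945-85148194, minus strand), for Camk2n2 (chr11:93793845-93794094, plus strand) and for Camk2d (chr2:217698301-217698550, plus strand). Capitals mark the GC box GGGCGG or its reverse complement, and overlapping matches run together.
Camk2b: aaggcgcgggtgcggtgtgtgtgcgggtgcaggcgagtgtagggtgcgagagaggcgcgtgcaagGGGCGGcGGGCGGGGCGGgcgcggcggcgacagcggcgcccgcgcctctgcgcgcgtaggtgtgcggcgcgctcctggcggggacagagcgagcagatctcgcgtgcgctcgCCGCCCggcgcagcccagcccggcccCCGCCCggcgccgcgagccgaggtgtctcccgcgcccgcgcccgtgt
Camk2n2: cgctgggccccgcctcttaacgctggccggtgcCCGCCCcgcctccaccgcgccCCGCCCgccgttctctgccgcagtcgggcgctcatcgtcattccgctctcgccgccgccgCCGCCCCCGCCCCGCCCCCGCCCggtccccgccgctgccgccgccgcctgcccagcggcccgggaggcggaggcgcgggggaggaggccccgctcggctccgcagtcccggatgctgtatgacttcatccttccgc
Camk2d: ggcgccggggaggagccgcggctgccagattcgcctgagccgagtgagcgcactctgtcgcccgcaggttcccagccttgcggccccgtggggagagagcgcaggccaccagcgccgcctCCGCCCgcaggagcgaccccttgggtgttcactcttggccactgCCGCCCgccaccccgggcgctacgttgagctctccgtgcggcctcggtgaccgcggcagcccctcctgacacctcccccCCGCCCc
The upstream stretch of Camk2b was 80.4% G and C with 5 GC boxes and 47 CG dinucleotides, that of Camk2n2 80.0% with 6 GC boxes and 40, and that of Camk2d 75.2% with 3 GC boxes and 28. The median over 33469 upstream stretches of the same length was 51.2% G and C with 5 CG dinucleotides, and 30.5% of them held a GC box on either strand. For Camk2g the values were 80.8%, 7 and 30, whereas for Camk2a they were 60.4%, 0 and 10. None of the 5 stretches held TATAAA, which 12.9% of all stretches held, or TGACGTCA, the full cAMP response element, which 1.59% held. Both searches covered both strands.

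The SD of strain means was 0.15 for Camk2a, 0.11 for Camk2b, 0.09 for Camk2d and 0.06 for Camk2g, against a median of 0.10 over genes with a mean above 11. Camk2a had a mean of 15.07 ± 0.24 (SD, n = 197 animals), and its strain means ran from 14.76 in HXB23/Ipcv to 15.41 in HXB17/Ipcv, a ratio of 1.57. Of these extremes, 2 of the 3 HXB23/Ipcv animals and 1 of the 3 HXB17/Ipcv animals had raised liver markers. Animal 2 of HXB17/Ipcv had low Y-linked transcripts. Camk2b had a mean of 14.08 ± 0.17 (SD, n = 197), with strain means from 13.79 in BUF/MnaMcwi, which had 1 animal, to 14.32 in LEXF1C/Stm, a ratio of 1.45. Camk2d had a mean of 12.33 ± 0.14 (SD, n = 197), with strain means from 12.12 in HXB1/Ipcv to 12.59 in LH/MavRrrc, a ratio of 1.38. Camk2g was the steadiest of the 6 genes, with a mean of 12.94 ± 0.09 (SD, n = 197) and strain means from 12.82 in LEW/Crl to 13.13 in LEXF2B/Stm, which had 1 animal, a ratio of 1.24. The LEW/Crl animals are among those that stood apart.

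The inhibitor genes differed from each other in their spread. Camk2n1 had a mean of 12.18 ± 0.14 (SD, n = 197), with strain means from 11.92 in LE/Stm, a single animal with raised liver markers, to 12.44 in HXB27/Ipcv, a ratio of 1.43. Camk2n2 had a mean of 7.29 ± 0.39 (SD, n = 197) and strain means from 6.75 in LEXF10A/Stm to 7.89 in HXB2/Ipcv, which had 2 animals, a ratio of 2.19. The SD between animals of 1 strain was 0.37 for Camk2n2 and 0.13 for Camk2n1, against a median of 0.16 over all genes and 0.13 over the 3674 genes with a mean above 11. In none of the 6 genes was any strain mean separated from the next one in order by more than 1 standard error of their difference, so neighbours in the order of strains could not be told apart.

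**Figure D1:**
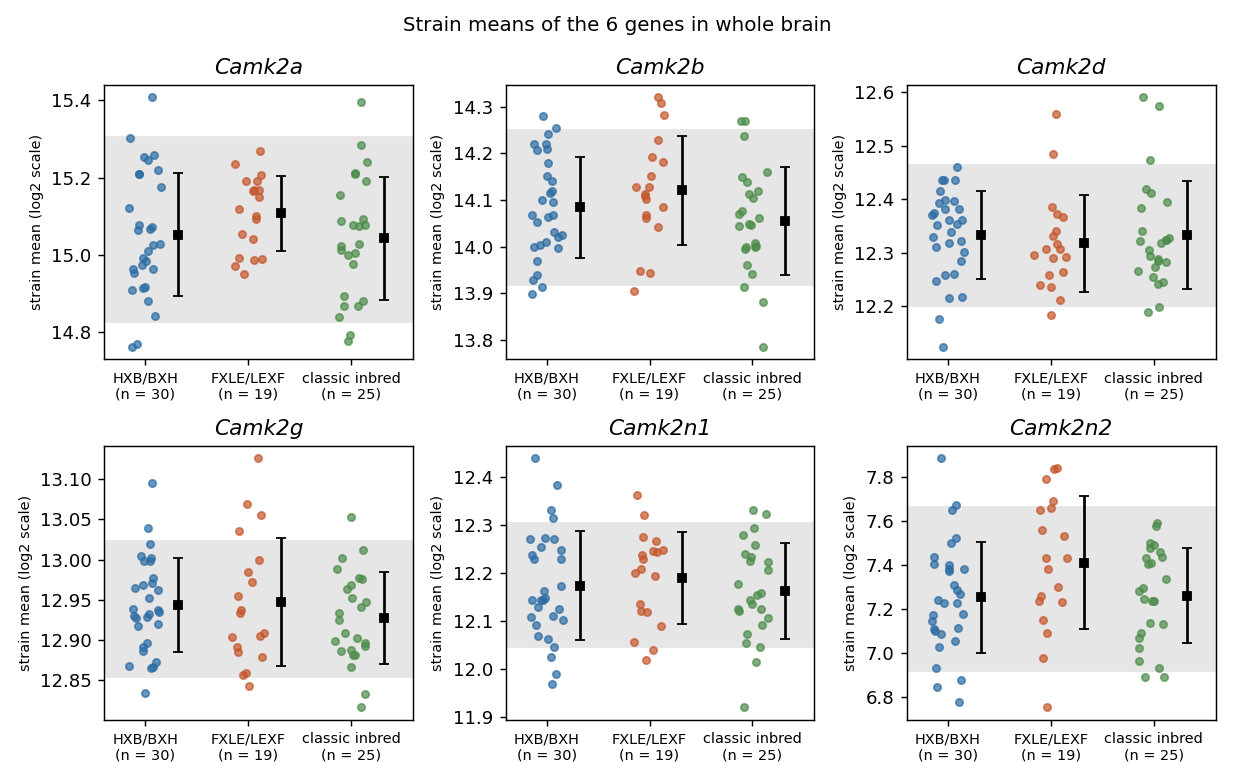
Strain means (points, log2 scale) of each gene by panel, with the mean and SD over strains (squares and bars) for 30 HXB/BXH, 19 FXLE/LEXF and 25 classic inbred strains. The grey band is the mean of all animals plus or minus the SD between animals of 1 strain, and most strain means lie inside it for each of the 6 genes.

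Levels of the 3 panels are given as a description, since HXB/BXH and FXLE/LEXF share no sequencing batch and batch differences had been taken out of these values, as described below for the versions of the tables. A difference between these panels could have been removed with them. Mean Camk2n1 over strains was 12.17 ± 0.11 (SD, n = 30 strains) in HXB/BXH, 12.19 ± 0.10 (SD, n = 19) in FXLE/LEXF and 12.16 ± 0.10 (SD, n = 25) in the classic strains. The widest gap between panels was that of Camk2n2, at 7.41 ± 0.30 (SD, n = 19) in FXLE/LEXF against 7.25 ± 0.25 (SD, n = 30) in HXB/BXH, which is less than 1 SD of the strains and was not tested.

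How far the level of each gene was set by strain was measured by the broad-sense heritability R2, the share of the variance that lies between strains. With 74 strains and 197 animals, R2 would average 0.372 without any strain difference, and its median over all genes was 0.451. By the moderated F-test of limma, adjusted over all genes, 37.3% of genes differed between strains, and 1 of the 6 did. That gene was Camk2n1, with R2 = 0.494 (adjusted p = 0.0261), above 69.5% of all genes. The kinase genes had R2 of 0.362 for Camk2a (adjusted p = 0.578), 0.398 for Camk2b (adjusted p = 0.348), 0.412 for Camk2d (adjusted p = 0.289) and 0.448 for Camk2g (adjusted p = 0.181), and Camk2n2 had 0.410 (adjusted p = 0.251). Camk2a thus lay just below the average of 0.372, above only 6.67% of genes. That average takes animals as independent, although batch differences had been taken out of these values, as described below. The same holds for the expected values within panels. The median R2 of the 6 genes was 0.411.

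After removal of what the animals' own spread contributes, the between-strain component was 19.4% of the variance of Camk2n1, 12.1% for Camk2g, 6.32% for Camk2d, 6.05% for Camk2n2, 4.16% for Camk2b and 0% for Camk2a. The call for Camk2n1 was not stable. It was lost without the libraries that stood apart (adjusted p = 0.0565), and without the animals numbered 1, 2 or 3 (adjusted p = 0.105, 0.510 and 0.122), where fewer animals were fitted. Other treatments of the values called more of the 6, and more of all genes. With batch as a covariate, which called 56.6% of genes, Camk2n2 was added (R2 = 0.485, adjusted p = 0.0444). When single libraries were fitted with batch and an animal block, which called 70.3% of genes, Camk2b (0.478, adjusted p = 0.0165), Camk2d (0.518, adjusted p = 0.00241), Camk2g (0.487, adjusted p = 0.0311) and Camk2n2 (0.515, adjusted p = 0.00511) were called. In version 5 of the deposited data, which called 63.6% of genes, Camk2d (0.624, adjusted p = 3.92e-06), Camk2g (0.460, adjusted p = 0.0325) and Camk2n2 (0.502, adjusted p = 0.00490) were called. With batch as a covariate in version 5, none of these 3 genes was called. Camk2a was called in none of its alternatives. For Camk2n1, over its 12 alternatives the adjusted p ran from 1.1e-05 to 0.510, with 8 below 5%.

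**Figure D2:**
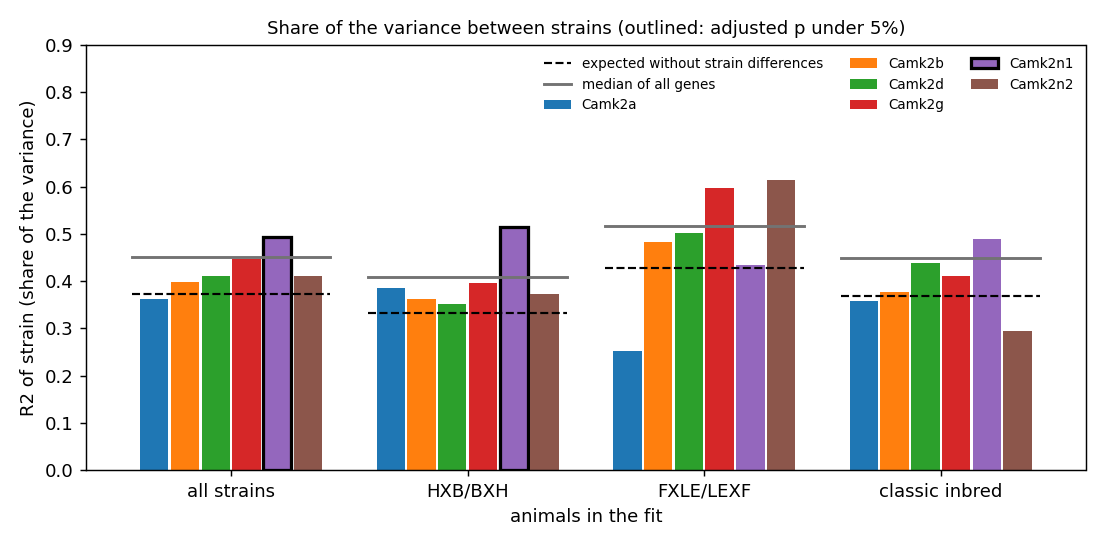
R2 of strain (bars from 0) for each gene over all strains and within each panel, with the value expected without strain differences (dashed) and the median of all genes (grey line). Camk2n1 is outlined over all strains (0.494) and in HXB/BXH (0.514), where its adjusted p was below 5%, and no other bar is outlined.

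In the HXB/BXH strains, which carry the SHR and BN-Lx genomes in new combinations, 19.1% of genes had a strain effect and, of the 6, again only Camk2n1 was called (R2 = 0.514, expected 0.333, adjusted p = 0.0416). The other 5 genes ran from R2 = 0.353 for Camk2d to 0.395 for Camk2g. In the FXLE/LEXF strains 4.61% of genes and none of the 6 were called. The highest R2 there was that of Camk2n2 at 0.613 (expected 0.429, p = 0.0161, adjusted p = 0.141), and Camk2n1 had 0.433. In the classic strains 19.3% of genes and none of the 6 were called, with Camk2n1 at 0.489 (expected 0.369, adjusted p = 0.236). In version 5, which held 15 classic strains, Camk2n1 had R2 = 0.822 there (adjusted p = 3.13e-06, 34.4% of genes called), and 0.704 with batch as a covariate (adjusted p = 0.00979, 16.8% called). Camk2d was called there in version 5 as well (0.632, adjusted p = 0.00612), but not with batch as a covariate (0.276, adjusted p = 0.830). Whether R2 differs between panels was not tested.

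The HXB/BXH call was also fragile. The adjusted p for Camk2n1 rose to 0.102 without the libraries that stood apart, to 0.0504 with the replicate number as a block and to 0.0889 in an earlier version of the deposited data (version 6, 16.3% of genes called). It was called in 4 of 11 alternatives.

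Among the HXB/BXH strains Camk2n1 was lowest in BXH8/Cub at 11.97 ± 0.10 (SD, n = 3), BXH5/Cub at 11.99 ± 0.16 (SD, n = 3), HXB1/Ipcv at 12.03 ± 0.11 (SD, n = 3) and BXH2/Cub at 12.05 ± 0.08 (SD, n = 3). It was highest in HXB27/Ipcv at 12.44 ± 0.05 (SD, n = 3), HXB24/Ipcv at 12.38 ± 0.06 (SD, n = 3), HXB25/Ipcv at 12.33 ± 0.14 (SD, n = 3) and BXH10/Cub at 12.31 ± 0.22 (SD, n = 3), where animal 3 had raised liver markers. Animals ran from 12.39 to 12.47 in HXB27/Ipcv and from 11.87 to 12.08 in BXH8/Cub, the strains at the ends of the order. Within strains the spread could be as wide as between them, with 3 animals of BXH13/Cub at 11.97 to 12.47 and 3 of HXB4/Ipcv at 11.95 to 12.46.

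The parents lay inside this range. Strain means of 9 of the 30 HXB/BXH strains were above SHR/OlaIpcv at 12.24, and 12 were below BN-Lx/Cub at 12.14. The range of the 30 strain means, 0.47, was wider than the difference of 0.10 between the parents. A range of 30 means widens with their number and with the spread of animals, so the comparison cannot show strain effects beyond the parents. No grouping of the strains into levels was seen. Normal mixtures fitted to the 30 strain means with mclust chose 1 cluster for each of the 6 genes, against more than 1 for 11.7% of all genes, and also when all 74 strains were used.

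**Figure D3:**
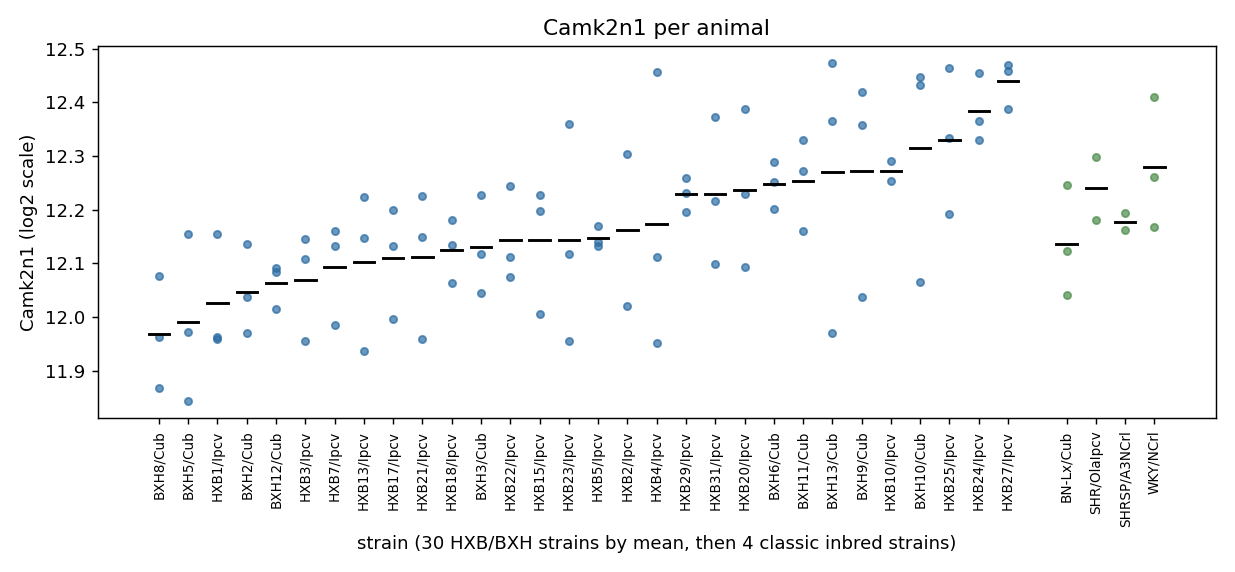
Camk2n1 in each animal (points, log2 scale) and strain mean (bars) for the 30 HXB/BXH strains in order of their mean, and for BN-Lx/Cub, SHR/OlaIpcv, SHRSP/A3NCrl and WKY/NCrl. The means rise in small steps from 11.97 to 12.44, and the largest step is 0.055.

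Levels in SHR and WKY were compared to ask whether Camk2n1 differs between the hypertensive strain and its normotensive control. In the RefSeq table it did not differ beyond the spread. Camk2n1 was 12.30 and 12.18 in the 2 SHR/OlaIpcv animals and 12.26, 12.41 and 12.17 in the 3 WKY/NCrl animals. The SHR animals lay within the range of the WKY animals. SHR minus WKY was -0.04 (SE 0.12, 95% interval -0.27 to 0.19, limma adjusted p = 0.964). In the contrast as a whole 0.825% of genes were called, and none of the 6. By the paper, SHR/OlaIpcv and BN-Lx/Cub rats were kept in Prague, and their brains arrived in liquid nitrogen. The other classic strains came from commercial breeders, and their brains were put in RNAlater and frozen. In any version, a strain difference between SHR and WKY thus cannot be told apart from one of colony or tissue handling.

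Within a sequencing batch the 2 strains could be set side by side in 2 cases. In batch 10 SHR/OlaIpcv animal 1 had 12.25 and WKY/NCrl animals 1 and 2 had 12.26 and 12.41. In batch 11 SHR/OlaIpcv animal 1 had 12.54 and WKY/NCrl animal 3 had 12.17, but that SHR library had raised liver markers and was the highest of the animal's 12. The 12 libraries of animal 1 ran from 12.16 to 12.54 (SD 0.10), and those of animal 4 from 12.02 to 12.27 (SD 0.10, 6 libraries).

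The remaining members gave SHR minus WKY of -0.05 (SE 0.22) for Camk2a, 0.07 (SE 0.15) for Camk2b, 0.07 (SE 0.12) for Camk2d and 0.04 (SE 0.08) for Camk2g. Camk2n2 had the widest difference, with 7.00 and 6.87 in SHR/OlaIpcv against 7.15, 7.75 and 7.31 in WKY/NCrl. SHR was lower in every animal, by -0.47 on the log2 scale (SE 0.34, 95% interval -1.14 to 0.19, adjusted p = 0.787). In version 5 of the deposited tables the difference was -0.06 (adjusted p = 0.802), with overlapping animals at 7.14, 7.09 and 7.31 in SHR against 7.17, 7.32 and 7.24 in WKY, and it was 0.07 with batch as a covariate (adjusted p = 0.814). Groups did not overlap for Camk2b, Camk2d and Camk2n2, and 40.5% of all genes did not overlap in this comparison. The sign of Camk2b turned to -0.08 in version 6 (adjusted p = 0.821) and to -0.18 in the fit to single libraries described next (adjusted p = 0.368). Markers of microglia were lower in SHR, at 9.61 to 9.76 against 10.02 to 10.13 in WKY, and liver markers were higher, at 9.52 to 9.61 against 9.25 to 9.36. These liver levels average 5 genes with Ttr, which was left out where libraries were called raised. The mean of SHR animal 1 includes its batch 11 library. The part of these markers in the differences was not tested. With single libraries fitted with batch and an animal block (estimated correlation 0.204 between libraries of 1 animal, with the 18 SHR libraries from 2 animals), which called 20.9% of genes, Camk2d was higher in SHR by 0.34 (adjusted p = 0.0190) and Camk2n2 lower, at -1.03 (adjusted p = 0.0113), while Camk2n1 was not called, at 0.03 (adjusted p = 0.862). With batch as a covariate on animal means, neither was called: Camk2d was 0.14 (adjusted p = 0.856) and Camk2n2 -0.55 (adjusted p = 0.784). In that fit each SHR animal carried the batch of only 1 of its libraries, a batch that no WKY animal had. It could therefore not account for the other batches of the SHR animals. SHR and WKY share only batches 10 and 11, through libraries of SHR animal 1. In batch 10 Camk2d was 12.47 in SHR against 12.27 and 12.25 in WKY, and Camk2n2 6.43 against 7.15 and 7.75. In batch 11, where the SHR library had raised liver markers, Camk2d was 12.77 against 12.25 and Camk2n2 5.96 against 7.31. Over the 12 libraries of SHR animal 1 the means were 12.32 for Camk2d and 7.00 for Camk2n2. Its batch 10 and 11 libraries were the highest of these for Camk2d and the lowest for Camk2n2. Cerebellar markers overlapped, at 10.47 and 10.55 in the SHR animals against 9.80, 9.82 and 10.67 in the WKY animals, and their part was not tested.

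Against the other parent, BN-Lx/Cub, none of the 6 was called, and 4.51% of genes were. Camk2n1 was 12.25, 12.12 and 12.04 in the BN-Lx/Cub animals, of which 1 lay between the SHR values and 2 below them. SHR minus BN-Lx was 0.10 (SE 0.12, 95% interval -0.13 to 0.34, adjusted p = 0.682). The lowest p was that of Camk2d, at 12.32 and 12.32 in SHR/OlaIpcv and 12.81, 12.33 and 12.59 in BN-Lx/Cub, a difference of -0.25 (SE 0.12, 95% interval -0.49 to -0.01, p = 0.0386, adjusted p = 0.229). Both SHR values were below all 3 BN-Lx values, by little in the case of BN-Lx animal 2, and without BN-Lx animal 1 the difference was -0.13. Of all genes, 38.9% had no overlap between these animals. Markers of cerebellar neurons moved with Camk2d among the BN-Lx animals. They averaged 10.90 in animal 1, 9.87 in animal 2 and 10.74 in animal 3, against 10.47 and 10.55 in the SHR animals. Liver markers, again with Ttr, did not overlap, at 9.52 to 9.61 in SHR against 8.82 to 9.00 in BN-Lx. The part of both in the difference was not tested. The library-level fit, with the same 18 SHR libraries, gave -0.27 for Camk2d (adjusted p = 0.0435, 16.5% of genes called), the only 1 of 20 alternatives that called it. With batch as a covariate on animal means, where each SHR animal again carried the batch of only 1 library, it was -0.38 (adjusted p = 0.346). In version 5 the direction turned, to 0.04 (adjusted p = 0.909), with 12.46, 12.87 and 12.53 in SHR against 12.76, 12.43 and 12.56 in BN-Lx, and to 0.12 without SHR animal 1 (adjusted p = 0.708).

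In SHRSP/A3NCrl Camk2n1 was 12.19 and 12.16, and SHRSP minus WKY was -0.10 (SE 0.12, 95% interval -0.34 to 0.13, adjusted p = 0.923). This comparison shares its WKY animals with the first. It called 0.805% of genes and none of the 6. Camk2g alone did not overlap, with 13.05 and 12.92 in SHRSP/A3NCrl and 12.87, 12.91 and 12.82 in WKY/NCrl, where 21.1% of genes did not overlap. Its difference was 0.12 (SE 0.08, adjusted p = 0.827). Markers of 3 kinds were lower in SHRSP than in WKY without overlap: oligodendrocytes at 14.51 to 14.68 against 14.81 to 15.04, microglia at 9.66 to 9.78 against 10.02 to 10.13, and liver at 9.06 to 9.23 against 9.25 to 9.36. The liver markers again included Ttr. The part of all 3 kinds was not tested.

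Other values were found in an earlier version of the deposited data. In the earliest version used (version 5, with Ensembl genes), Camk2n1 was 12.91, 12.85 and 12.50 in SHR/OlaIpcv animals 1, 2 and 3 and 12.28, 12.46 and 12.29 in the WKY/NCrl animals. Here SHR was above WKY in every animal, but the share of all genes without overlap in version 5 was not counted. The difference was 0.41 (adjusted p = 0.0197), in a contrast that called 24.6% of genes. Against BN-Lx/Cub, at 12.49, 12.31 and 12.15, it was 0.44 (adjusted p = 0.0447, 4.37% of genes called). With batch as a covariate the differences were 0.44 (adjusted p = 0.00664, 23.0% of genes called) and 0.40 (adjusted p = 0.0490, 3.49% called).

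Both calls were lost without the library of SHR/OlaIpcv animal 1, the one with raised liver markers, at 0.33 (adjusted p = 0.0969, 25.3% of genes called) and 0.36 (adjusted p = 0.221, 2.77% called). Camk2d was also called against WKY in version 5, at 12.46, 12.87 and 12.53 in SHR/OlaIpcv and 12.16, 12.22 and 12.10 in WKY/NCrl. All SHR values were the higher, by 0.46 (adjusted p = 0.000328), and by 0.54 (adjusted p = 0.000166) without SHR animal 1. As for Camk2n1, the share of all genes without overlap there was not counted.

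These versions hold partly different animals and were scaled separately, and the identifier matched to Camk2n1 differs between versions 5 and 6. SHR/OlaIpcv had animals 1, 2 and 3 in version 5, animals 1, 3 and 4 in version 6, and animals 1 and 4 in version 7.1, the RefSeq table. In version 6 the Camk2n1 difference from WKY was -0.01 (adjusted p = 0.979, 0.949% of genes called). The R2 of sequencing batch for Camk2n1 was 0.421 in version 5, with batch means from 11.79 to 12.49, and 0.0206 in version 7.1, with batch means from 12.07 to 12.20. Its median over all genes was 0.273 in version 5 and 0.0075 in version 7.1, where 0.0751 would be expected without batch differences. Batch differences had therefore already been taken out of the version 6 and 7.1 values, by a step that is not given in the sources used here, and the p-values rest on the spread left after it. The SHR libraries of version 5 were from batches 11, 1 and 6 and those of WKY from batches 10, 10 and 11, so that strain and batch overlap only in batch 11, where SHR animal 1 had 12.91 and WKY animal 3 had 12.29.

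**Figure D4:**
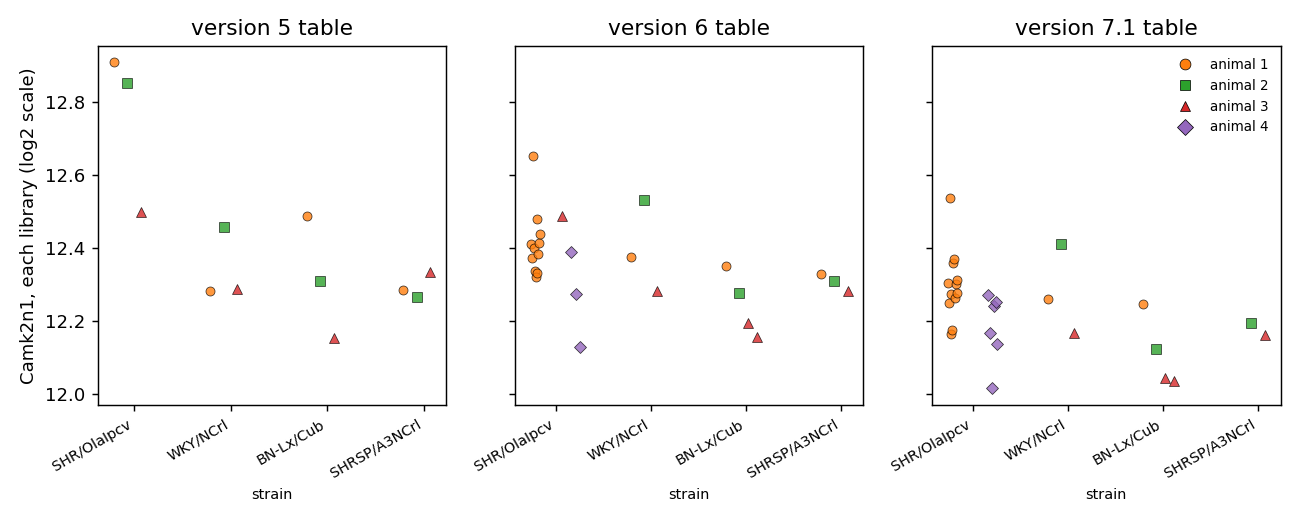
Camk2n1 in each library (log2 scale) of SHR/OlaIpcv, WKY/NCrl, BN-Lx/Cub and SHRSP/A3NCrl in 3 versions of the deposited gene tables, with symbols for the animal. SHR lies above WKY in version 5 (12.50 to 12.91 against 12.28 to 12.46) and on both sides of the WKY values in version 7.1; levels are not comparable between the 3 plots.

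Whether the kinase subunits and the inhibitors vary together was asked over the 74 strain means, in 15 pairs, by permutation tests with 100000 resamples (two-sided, adjusted over the 15 pairs). There were 10 pairs with an adjusted p of Pearson's r below 5%, all among the 5 genes other than Camk2n1. The share of all pairs of genes past this threshold was not computed, so the count does not set these genes apart. Strain means also carry the spread of their few animals, and the between-strain component was 0% for Camk2a and 4.16% for Camk2b. These p-values therefore do not separate covariation between strains from covariation between animals. The permutations also treated related strains as exchangeable. Camk2a and Camk2b rose together (r = 0.682, rho = 0.653, permutation p = 1e-05, the smallest that the resamples could give, adjusted p = 7.5e-05), and r was 0.659 without the 2 strains farthest from the median. Camk2b and Camk2n2 rose together as well (r = 0.593, rho = 0.560, permutation p = 1e-05, adjusted p = 7.5e-05, 0.572 without 2 strains). Camk2d moved against both, with r = -0.482 to Camk2b (rho = -0.482, permutation p = 3e-05, adjusted p = 0.000112, -0.491 without 2 strains) and r = -0.455 to Camk2n2 (rho = -0.463, permutation p = 4e-05, adjusted p = 0.00012, -0.436 without 2 strains).

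Camk2g followed Camk2b at r = 0.508 (rho = 0.458, permutation p = 2e-05, adjusted p = 0.0001, 0.504 without 2 strains). The other 5 pairs past 5% had r between -0.371 and 0.368, and that of Camk2d and Camk2g was not past it by Spearman's rho (rho = -0.193, adjusted permutation p = 0.150). Camk2n1 was not past 5% with any of the 5, with r from -0.128 to 0.127 over all strains. In HXB/BXH its r with Camk2g was -0.411 (permutation p = 0.0243, adjusted p = 0.0520), against -0.099 in FXLE/LEXF and 0.183 in the classic strains. Within panels, Camk2a and Camk2b had r = 0.560 in HXB/BXH (n = 30), 0.827 in FXLE/LEXF (n = 19) and 0.767 in the classic strains (n = 25). Camk2b and Camk2n2 had 0.681, 0.501 and 0.542, which was not past 5% in FXLE/LEXF (adjusted permutation p = 0.0734). Of the 10 pairs, 6 were past 5% in HXB/BXH, 4 in FXLE/LEXF and 2 in the classic strains, each with fewer strains. Camk2a and Camk2g had r = 0.614 in HXB/BXH, 0.379 in FXLE/LEXF and 0.092 in the classic strains, and Camk2g and Camk2n2 had 0.358, 0.621 and 0.0015. Differences between panels were not tested.

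Pairs were also compared within strains and within 1 animal, as a description. Over 192 animals, as deviations from the mean of their strain, r was 0.675 for Camk2a and Camk2b, 0.649 for Camk2b and Camk2n2, and -0.611 for Camk2b and Camk2d. Over the 12 libraries of SHR/OlaIpcv animal 1, r was 0.938 for Camk2b and Camk2n2, -0.921 for Camk2b and Camk2d and -0.898 for Camk2d and Camk2n2. In those libraries, Camk2b ran from 13.62 to 14.42, Camk2n2 from 5.96 to 7.66 and Camk2d from 12.06 to 12.77. The batch 11 library, with raised liver markers, was lowest in Camk2b and Camk2n2 and highest in Camk2d. Without it r to Camk2b was 0.903 for Camk2n2 and -0.880 for Camk2d. Camk2n1 had r = -0.599 to Camk2b with that library and -0.224 without it.

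**Figure D5:**
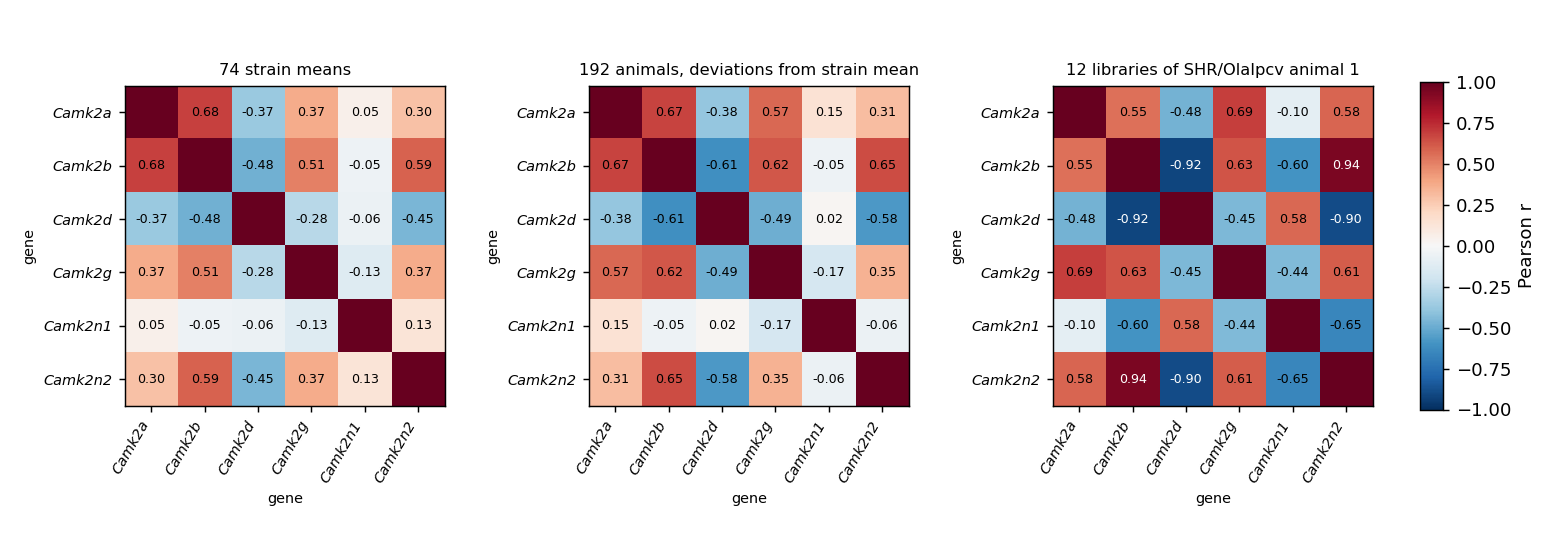
Pearson's r between the 6 genes over 74 strain means, over 192 animals as deviations from their strain mean, and over 12 libraries of 1 SHR/OlaIpcv animal (red positive, blue negative). Camk2b and Camk2n2 are red in all 3 grids (0.59, 0.65 and 0.94), Camk2d is blue against both, and Camk2n1 is near 0 in the first 2 grids.

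Repeat libraries of 1 animal were as far apart as different animals for some of these genes. The SD over the 12 libraries was 0.23 for Camk2b, 0.18 for Camk2d and 0.55 for Camk2n2, which is 1.41, 1.38 and 1.47 times the SD between animals of 1 strain. For Camk2n1 it was 0.10, which is 0.745 times, for Camk2a 0.816 times and for Camk2g 0.904 times, against a median of 1.04 times over all genes. Without the batch 11 library the ratios were 1.14 for Camk2b, 0.92 for Camk2d, 1.24 for Camk2n2 and 0.497 for Camk2n1, against a median of 0.91, so that the ratio of Camk2d above 1 rests on that library. Many genes moved along with Camk2b. Over the 192 animals 16.3% of genes had r above 0.5 with Camk2b and 14.5% had r below -0.5. For Camk2n1 these shares were 0.158% and 0.0528%. The first principal component of all genes' deviations within strains, with 23.5% of their variance, had r = 0.829 with Camk2b, 0.787 with Camk2n2, -0.735 with Camk2d and -0.201 with Camk2n1. What this axis stands for was not tested.

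Genes with a pattern across strains most like that of each member were found among 9943 candidates, by Pearson's r over 74 strain means, as a description. For Camk2a they were Rtl6 (0.855), Nisch (0.844) and Bcr (0.817), and for Camk2b they were Kat2a (0.897), Atp6v0c (0.893) and Stk32c (0.887). For Camk2d they were Hif1a (0.829), Cep126 (0.823) and Etv1 (0.818). Camk2g was closest to Kctd3 (0.686), Mapt (0.684), the gene of tau, and Kif3c (0.676). Camk2n2 was closest to Atp13a2 (0.843), Cadm4 (0.839) and Eml2 (0.837). No gene came as near to Camk2n1: its closest were Erc2 (0.562), which encodes a protein of the presynaptic active zone, Atp5if1 (0.517), the inhibitor of the mitochondrial ATP synthase, and Arl3 (0.516). The same genes moved with the members within strains, so the likeness is not particular to strains. Over 192 animals as deviations from their strain mean, r was 0.79 to 0.90 for Camk2a, 0.87 to 0.92 for Camk2b and 0.81 to 0.84 for Camk2d. It was 0.71 to 0.75 for Camk2g, 0.78 to 0.87 for Camk2n2 and 0.39 to 0.52 for Camk2n1.

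Markers of brain cell types moved with some members. In bulk tissue, fewer cells of a type and less RNA per cell cannot be told apart. Camk2a had r = 0.503 with the mean of 6 markers of forebrain excitatory neurons over strains and 0.621 over animals within strains. Camk2d had r = 0.467 and 0.508 with 6 markers of cerebellar neurons, whose mean ran from 9.44 to 11.16 over animals. With 6 markers of striatal projection neurons its r was -0.215 and -0.432. Camk2b had r = 0.424 and 0.396 with the forebrain markers and 0.386 and 0.348 with the striatal markers. With the cerebellar markers Camk2b had r = 0.041 and -0.1. Camk2n1 had r = -0.332 and -0.261 with 5 markers of astrocytes, and 0.162 and 0.416 with the forebrain markers. With the 5 liver markers, Ttr among them, r ran from -0.247 for Camk2n2 to -0.016 for Camk2d over strains. The part of these markers in the results was not tested.

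The isoforms of the 6 genes were read from the RefSeq transcript table, which held 26 of their transcripts: 3 of Camk2a, 6 of Camk2b, 3 of Camk2d, 12 of Camk2g and 1 for each inhibitor. Of 45892 transcripts, 13.9% had a strain effect, and 2 of the 26 did. One was NM_012920.1 of Camk2a (mean 9.61, R2 = 0.508, adjusted p = 0.0249), with animals from 5.47 to 12.80. The other was XM_017590604.2 of Camk2d (mean 6.68, R2 = 0.556, adjusted p = 0.00168), with animals from 3.65 to 8.11. Both belong to genes that were not called as a whole. The Camk2a call was lost without the animals numbered 1 (adjusted p = 0.322) or 3 (0.464), and the Camk2d call without those numbered 1 (0.639) or 2 (0.101).

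The leading transcript of Camk2a, XM_039096592.1, had a mean of 14.66 and R2 = 0.383, and that of Camk2b, NM_021739.2, a mean of 13.74 and R2 = 0.394. The 3 transcripts of Camk2d lay at means from 6.15 to 7.70, where the gene as a whole lay at 12.33, so other Camk2d transcripts, if any carry the rest of the gene's level, were not analysed here. The single transcript of Camk2n1, NM_173337.1, had R2 = 0.505 (adjusted p = 0.0704), and that of Camk2n2, NM_021678.1, 0.406 (adjusted p = 0.446). None of the 26 was called in SHR minus WKY, where 0.222% of transcripts were, or in SHR minus BN-Lx, where 0.784% were. NM_173337.1 gave -0.05 (SE 0.15) and 0.15 (SE 0.15) in these. How reads were divided among near-identical isoforms is a property of the authors' estimates, and small isoforms are uncertain for that reason.

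Genes that work with CaM kinase II were taken from 4 lists, whose members were all measured. Of 10 other CaM kinases and CaM kinase kinases, 5 had a strain effect over all strains, where 37.3% of all genes did: the death-associated kinase gene Dapk2 (R2 = 0.584, adjusted p = 0.000117), Camk1d (0.541, adjusted p = 0.00377), Camk1g (0.536, adjusted p = 0.00474), Camk4 (0.482, adjusted p = 0.0331) and Camkv (0.480, adjusted p = 0.0440), which encodes a kinase-like protein of vesicles. The median R2 of this list was 0.472, against 0.451 over all genes. None of the 6 genes for calmodulin and calmodulin-storing proteins was called (median R2 0.421), and of 14 phosphatases and their inhibitors only Ppp1r1b, the gene of DARPP-32, was (0.496, adjusted p = 0.0191).

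Of 21 binding partners and substrates at the synapse, 4 were called, a smaller share than the 37.3% of all genes, among them Arc (R2 = 0.632, adjusted p = 4.37e-07) and the NMDA receptor subunit genes Grin2b (0.563, adjusted p = 0.000608) and Grin2a (0.552, adjusted p = 0.00128). In HXB/BXH, where 19.1% of all genes were called, the counts were 2 of 10, 0 of 6, 0 of 14 and 5 of 21, with Arc at 0.789 (adjusted p = 3.5e-10). None of these genes was called in SHR minus WKY or SHRSP minus WKY. In SHR minus BN-Lx, 2 of the 51 were called, or 3.92% beside 4.51% of all genes, both lower in SHR: Camk4, the nuclear CaM kinase gene, at 13.19 against 13.75 (-0.56, SE 0.17, adjusted p = 0.0405), and Gria2, an AMPA receptor subunit gene, at 13.94 against 14.42 (-0.49, SE 0.15, adjusted p = 0.0377). The lists that hold them had median differences of 0.15 and 0.05, above 0.

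Around Camk2n1, 59 genes lay within 1 Mb in the RefSeq annotation and 40 of them were measured. Their absolute r with Camk2n1 over strains had a median of 0.169, against 0.116 over all other genes. The 3 with the widest r were Ece1, which encodes endothelin-converting enzyme (-0.352), Mrto4 (0.350) and Emc1 (-0.340), and within HXB/BXH these were -0.478, 0.393 and -0.418. Of the 40, 11 had a strain effect in HXB/BXH, where 19.1% of all genes did. In SHR minus BN-Lx 4 of the 40 were called, against 4.51% of all genes, and in SHR minus WKY 2 were, against 0.825%. The 2 were LOC108351048 (-0.77, adjusted p = 0.0256) and the phospholipase gene Pla2g2d (-0.66, adjusted p = 0.0159), both lower in SHR, and named after their values were seen.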

How the data were processed

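The authors trimmed reads with cutadapt 1.9.1, removed ribosomal reads with Bowtie2 (2.3.4.3 or 2.4.5), aligned with HISAT2 (2.1.0 or 2.2.1), assembled with StringTie (1.3.5 and, for 39 samples, also 2.2.1), estimated counts with RSEM (1.3.1 or 1.3.3) and transformed them with DESeq2, per the labels; for version 5 the methods add strain-specific genomes, 1 RUV factor for technical effects and the regularized log. The genome was rn6 for 148 samples. The deposited values are on a log2 scale, as the authors transformed them; the steps specific to versions 6 and 7.1 are not given in the sources used here. From these values, 73 spike-in features were left out of the RefSeq gene table. Libraries of 1 strain with the same animal number were averaged, and limma 3.58.1 (R 4.3.3) was fitted to all 20859 genes with strain as the only factor and no batch term, with Benjamini-Hochberg adjustment over all genes at 5%. Where batch was a covariate on these averages, an animal with several libraries was given the batch of only 1 of them. Clusters came from mclust 6.1.1. Correlations and figures used Python 3.11.15, scipy 1.17.1 and matplotlib. Checks on simulated data preceded the fits. Implausible values over 25 were found 13 times in the gene table, none of them in the 6 genes. In 26 samples the title gives another batch than the batch label, which was the one used. The batch of the LEXF9/Stm library was also taken from its label, and the deposited name of that library gives another batch. Nothing in the labels says whether animals of 1 strain came from separate litters, so p-values measure the spread between these animals.

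The 6 genes, the lists and the tests were chosen with earlier results of these data known. Genes were named by a rule: all 6 genes and their transcripts, at most 5 called genes per list and comparison, and the 3 most similar genes or neighbours. The values of 1 listed gene are not reported here. Strains named singly are the extremes of an order or were picked after their values were seen. The deposited strain means and reconstructed transcripts were not used.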

Additional observations from a re-analysis of the deposited data

How the results depend on the processing

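Camk2n1 in the all-strain comparison kept an adjusted p below 5% in 8 of 12 alternatives, and its R2 was 0.501 without the libraries that stand apart, where the call was lost. In HXB/BXH its call was lost with R2 of 0.521 under the replicate block, 0.482 in version 6, 0.432 in version 5 and 0.537 without the libraries apart. Leaving out the animals of 1 number gave R2 from 0.575 to 0.676 over all strains and from 0.598 to 0.689 in HXB/BXH, with fewer animals per strain. No cause was tested. Replicate numbers were not taken as pairs: the labels name no shared litter or day, no contrast has 3 pairs, and same-numbered animals of different strains had a mean correlation of 0.013 against -0.00626 for other numbers. The pairs of the contrasts had 0.162 in SHR minus WKY, -0.0947 in SHR minus BN-Lx, and 0.209 and 0.178 in SHRSP minus WKY. Depth is unknown, so precision comes from the animals alone. The version 5 fits with batch or without SHR/OlaIpcv animal 1 and those without the libraries apart were chosen after seeing the data.

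Counts of genes called moved as follows. The batch covariate called 11802 over all strains, 6694 in HXB/BXH, 56 in SHR minus WKY and 187 in SHR minus BN-Lx, and for isoforms 32 and 94 in those contrasts. Only genes above the median level, fewer by construction, gave 3579, 1532 in HXB/BXH, 384 in FXLE/LEXF, 1269 in the classic strains, 52, 469 and 35 in the 3 contrasts (SHRSP minus WKY last). The library-level fit gave 14673 over all strains, 4363 and 3450. Version 6 gave 2896 in FXLE/LEXF and 408 in SHR minus BN-Lx. Version 5 gave 6294 in the classic strains, 4504 in SHR minus WKY and 305 in SHRSP minus WKY, and with batch 4217 and 513. The animals of the 2 strains alone gave 306, 132 and 42, the replicate block 98 and 410 in SHR minus WKY and SHR minus BN-Lx, and the first library of each animal 496 in SHR minus BN-Lx. A BIC gain over 6 left 701 genes with more than 1 cluster. Leaving out 1 replicate gave 3003 to 6065 over all strains, 1677 to 1941 in HXB/BXH, 60 to 1359 in FXLE/LEXF, 1199 to 2409 in the classic strains, 2198 to 3475 isoforms, and 37 to 121 in SHR minus WKY, 202 to 1777 in SHR minus BN-Lx and 33 to 123 in SHRSP minus WKY. The lowest counts of the first 2 contrasts came without SHR/OlaIpcv animal 4 and the highest in SHR minus BN-Lx without BN-Lx/Cub animal 2.

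Differences of uncalled genes changed sign. In SHR minus WKY, Camk2a was 0.018 under the replicate block, Camk2b -0.079 in version 6 and -0.181 in the library-level fit, and Camk2g -0.0137 in version 6 and -0.0136 with first libraries. Camk2n1 was 0.061 with the batch covariate, 0.41 in version 5, 0.44 in version 5 with batch, 0.0082 with first libraries and 0.033 in the library-level fit, and Camk2n2 was 0.066 in version 5 with batch. In SHR minus BN-Lx, Camk2a was -0.016 with first libraries, Camk2d 0.037 in version 5, Camk2g -0.0059 in version 6, -0.017 in version 5 and -0.023 with batch, and Camk2n2 0.22 with the batch covariate, while Camk2n1 gained a call at 0.44 in version 5 and 0.40 with batch. In SHRSP minus WKY, Camk2a was 0.032 with the batch covariate, 0.023 in version 5 with batch and 0.051 in the library-level fit. Camk2b was there 0.036, 0.064 and 0.020, and 0.018 in version 5, and Camk2d was -0.040 with the batch covariate and -0.028 in the library-level fit. In version 5 without SHR animal 1, SHR minus WKY called 4630 genes and SHR minus BN-Lx 508, with Camk2n1 at 0.332 and Camk2g at -0.062 in the former, and Camk2d at 0.117 and Camk2g at -0.128 in the latter. In version 5 without the library labelled SHRSP/A3NCrl 1, SHRSP minus WKY gave 0.0081 for Camk2b and -0.032 for Camk2d. Leaving out 1 animal in SHR minus WKY gave -0.232 to 0.044 for Camk2a and -0.109 to 0.026 for Camk2n1. In SHR minus BN-Lx it gave -0.21 to 0.369 for Camk2a and -0.066 to 0.154 for Camk2g, and in SHRSP minus WKY -0.257 to 0.018 for Camk2a, -0.25 to 0.134 for Camk2b and -0.185 to 0.203 for Camk2d. With the batch covariate NM_173337.1 was 0.030, XM_017590604.2 0.132, XM_039091616.1 -0.82 and XM_039101696.1 0.40 in SHR minus WKY, and NM_021678.1 0.58, XM_008770491.3 0.55, XM_039092971.1 -0.074 and XM_039096593.1 0.70 in SHR minus BN-Lx.

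Pairs of genes past 5% numbered 6 in HXB/BXH, 4 in FXLE/LEXF and 2 in the classic strains, with fewer strains each. Camk2n1 changed sign with Camk2a (-0.0060), Camk2d (0.0025) and Camk2n2 (-0.084) in HXB/BXH, with Camk2b (0.043), Camk2d (0.082) and Camk2g (0.183) in the classic strains, and with Camk2a (-0.057) without libraries with raised liver markers. Camk2d and Camk2g had r = 0.068 in the classic strains.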
